A study of Mus musculus with 9 samples.

Results

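The BCL2 family genes decide whether a damaged cell keeps its mitochondria intact or dies by apoptosis. Members were taken by gene symbol from the table of kidney RNA levels, as 10 anti-apoptotic, effector and BH3-only genes among 55385 genes in all, and each of the 10 was found. The study induced hyperuricemic nephropathy (HN), a kidney injury from excess uric acid, in male C57BL/6 mice (C57BL/6J in the study's methods) aged 8 to 10 weeks with potassium oxonate at 2.4 g/kg, which raises uric acid by blocking its breakdown, given together with adenine at 0.16 g/kg for 4 weeks. Control mice received neither agent. PEC mice received both agents and, by mouth over the same time, 25 mg/kg of the plant flavonoid pectolinarigenin (PEC). The labels state no dose, which was taken from the description of the sequenced mice. Kidneys of 3 Control, 3 HN and 3 PEC mice were sequenced after selection of poly(A) RNA. The sample titles of the Control mice also carry the name of the disease model, and the disease state in the labels, which is control, was used.

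The family works as a balance on the outer mitochondrial membrane. Anti-apoptotic members hold the effectors Bax and Bak1 in check, BH3-only members sense stress and either block the protectors or activate the effectors, and activated effectors open the membrane so that cytochrome c escapes and caspases are switched on. In the kidney, tubular epithelial cells are rich in mitochondria, and their loss by apoptosis is a known feature of toxic and ischemic injury.

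Between 57714111 and 81069646 reads were counted on genes per library, and member counts ran from 126 reads for Bbc3 in PEC mouse 3 to 27108 reads for Mcl1 in HN mouse 4. The groups differed in the composition of their RNA. Mitochondrial genes held 14.2% ± 1.82 of the counts in Control mice, 6.19% ± 0.164 in HN mice and 12.3% ± 1.77 in PEC mice (SD, n = 3 per group). Levels are therefore given as TMM-scaled FPKM, which are the deposited FPKM (fragments relative to the length of the gene and the total of the library) divided by the composition factor of the library. That factor was 0.778 to 0.832 in Control mice, 1.15 to 1.22 in HN mice and 1.02 to 1.05 in PEC mice. The PEC libraries also stood apart in 2 technical measures. Their genes deviated from the mean over all libraries with GC content (Spearman rho across genes of 0.163 to 0.185, against -0.0641 to -0.181 in the other libraries) and with transcript length (-0.246 to -0.283, against 0.0190 to 0.194), where genes are not independent replicates. Nuclear ribosomal RNA loci held 0.117%, 0.682% and 0.119% of their counts, against at most 0.00283% elsewhere. These measures and the PEC group cannot be told apart here. The HN libraries also stood apart from the Control libraries with transcript length (0.163 to 0.194, against 0.0190 to 0.0491). This measure and the HN group cannot be told apart either.

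In HN mice, 5 of the 10 members rose against Control (Bcl2, Mcl1, Bax, Bak1 and Bbc3), where 21.1% of the 21392 tested genes did, and 2 fell (Bid and Bad), where 20.7% did. In PEC mice, 1 member rose against HN (Bid), where 18.3% of genes did, and 3 fell (Bcl2, Mcl1 and Bbc3), where 20.6% did. Against Control, 2 members were higher in PEC mice (Bax and Bak1), where 22.9% of genes were, and 1 was lower (Bid), where 23.5% were. The shares of members called in PEC mice were thus near those of all genes. A gene was called at an adjusted p of at most 0.05 in edgeR, and all 10 members passed the filter on low counts. The median log2 fold change of the members was 0.55 for HN against Control, -0.15 for PEC against HN and 0.12 for PEC against Control, beside -0.00081, -0.015 and 0.045 over all tested genes. The 3 comparisons share libraries and are not independent. In whole kidney, a change in the number of cells of a type and a change in RNA per cell cannot be told apart.

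**Figure D1:**
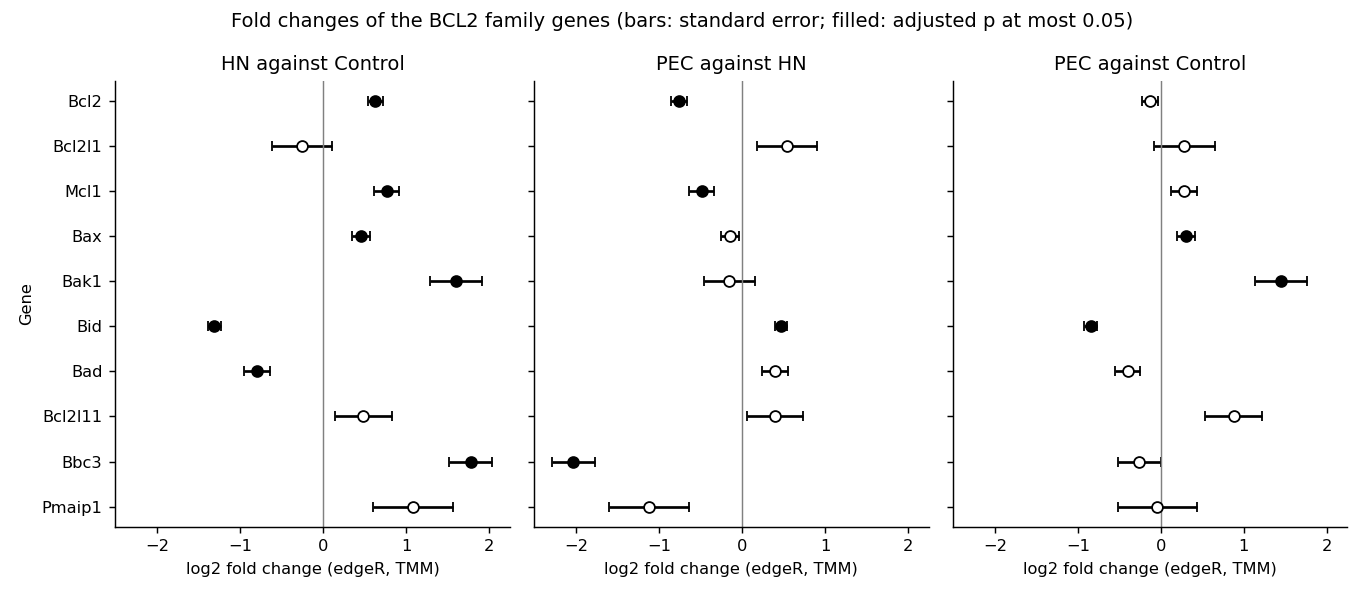
Log2 fold change (x axis) of each BCL2 family gene (y axis) in the 3 comparisons, from edgeR with TMM factors. Bars are standard errors and filled points have an adjusted p of at most 0.05. Bbc3 had the highest value in HN against Control (1.78) and the lowest in PEC against HN (-2.03), and Bak1 was above Control in both HN (1.60) and PEC mice (1.45).

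Among the anti-apoptotic genes, Bcl2 (ENSMUSG00000057329, chromosome 1 of GRCm38 from 106538178 to 106714274) encodes the founding member of the family. In the order of the mouse numbers, which are 2, 4 and 5 for Control, 4, 8 and 12 for HN, and 1, 2 and 3 for PEC, its TMM-scaled FPKM were 1.76, 1.71 and 2.02 in Control mice, 2.83, 2.73 and 2.77 in HN mice and 1.53, 1.68 and 1.65 in PEC mice. Every HN mouse lay above every other mouse, and the HN mice were within a CV of 1.91% of each other. Bcl2 rose in HN mice with a log2 fold change of 0.63 (SE 0.093, adjusted p = 0.000607) and fell with PEC by 0.76 (SE 0.094, adjusted p = 0.000329). The rise was called in all 19 alternatives, at values from 0.30 with a correction for the GC content and length of transcripts to 1.19 without a composition factor. In PEC against Control the value was -0.13 (adjusted p = 0.283), and it was above 0 on the deposited FPKM and with the GC and length correction (0.052), so that no direction can be given. The fall with PEC was smaller with that correction, at -0.25 (adjusted p = 0.0582), which was chosen after seeing the data. Over the alternatives run for this fall, the adjusted p ran from 9.87e-13 to 0.0582.

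Mcl1 (ENSMUSG00000038612, chromosome 3 from 95658788 to 95663176), a protector of short half-life, was the most abundant member in all 3 groups. Its TMM-scaled FPKM were 43.9, 45.5 and 35.7 in Control mice, 84.1, 62.9 and 62.2 in HN mice and 43.0, 48.2 and 56.1 in PEC mice. HN mice lay above both other groups, with HN mouse 4 well above the other HN mice, while PEC and Control mice overlapped. Mcl1 rose in HN mice by a log2 fold change of 0.76 (SE 0.15, adjusted p = 0.00350) and fell with PEC by 0.49 (SE 0.15, adjusted p = 0.0333). The rise ran from 0.46 with the GC and length correction (adjusted p = 0.0489) to 1.65 on rescaled FPKM, and the fall reached -1.05 on the latter. The call of the fall did not hold without HN mouse 4 (-0.33, adjusted p = 0.116), without PEC mouse 1 (-0.40, adjusted p = 0.108), without PEC mouse 2 (-0.46, adjusted p = 0.0835) or with the GC and length correction (-0.45, adjusted p = 0.0707), within a range of adjusted p from 0.000802 to 0.116 over its alternatives. PEC against Control gave 0.28 (adjusted p = 0.170) and 0.0098 with the GC and length correction (adjusted p = 0.968), and it passed the threshold when no composition factor was used (0.63, adjusted p = 0.00844, in a range of 0.00844 to 0.968).

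Bcl2l1 (ENSMUSG00000007659, chromosome 2 from 152780668 to 152831728), the gene of BCL-XL, spread widely within the groups, with a CV of 36.9% in HN and 38.7% in PEC mice. Its TMM-scaled FPKM were 12.3, 10.8 and 18.7 in Control mice, 10.1, 8.01 and 16.2 in HN mice and 20.002, 9.08 and 20.2 in PEC mice. In each group 1 mouse departed from the others, upward in Control (mouse 5) and HN (mouse 12) and downward in PEC (mouse 2), and all groups overlapped. The log2 fold changes were -0.26 (SE 0.36, adjusted p = 0.616) for HN against Control, 0.54 (SE 0.36, adjusted p = 0.270) for PEC against HN and 0.29 (SE 0.36, adjusted p = 0.553) for PEC against Control. Without Control mouse 5 the first was 0.0044 (adjusted p = 0.995), in a range of 0.143 to 0.995 over the alternatives, and without HN mouse 12 it was -0.60 (adjusted p = 0.258). With each mouse left out, the second ran from 0.34 to 0.88 and the third from 0.11 to 0.58.

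**Figure D2:**
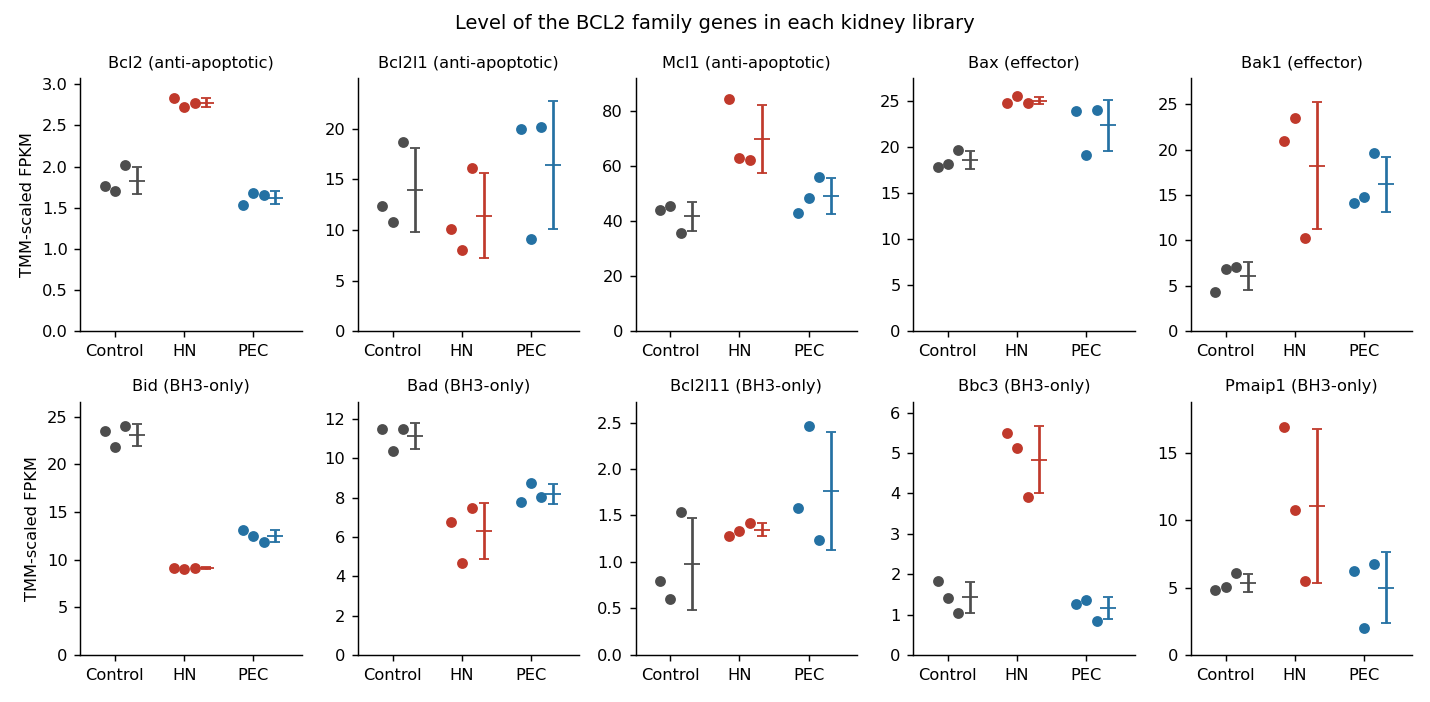
TMM-scaled FPKM (y axis, from 0) of the 10 BCL2 family genes in Control, HN and PEC mice (x axis). Points are single mice, and the bar beside them is the mean with its SD (n = 3). The groups stand clear of each other for Bid (21.8 to 24.0 in Control mice, 9.03 to 9.18 in HN mice and 11.9 to 13.1 in PEC mice), whereas Bcl2l1 spreads widely within each group.

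Of the effectors, Bax (ENSMUSG00000003873, chromosome 7 from 45461697 to 45466898) encodes a protein that moves from the cytosol to mitochondria. Its TMM-scaled FPKM were 17.8, 18.1 and 19.7 in Control mice, 24.8, 25.5 and 24.8 in HN mice and 23.9, 19.1 and 24.0 in PEC mice. All HN mice were above all Control mice, and PEC mouse 2 lay among the Control mice while the other PEC mice were just under the HN mice. Bax rose in HN mice by a log2 fold change of 0.45 (SE 0.11, adjusted p = 0.00859), a call that was lost with the GC and length correction (0.16, adjusted p = 0.349, in a range of 8.26e-06 to 0.349) and was as large as 1.32 on rescaled FPKM. PEC against HN gave -0.14 (SE 0.11, adjusted p = 0.329). That value was -0.033 without PEC mouse 2 (adjusted p = 0.799), -0.34 without a composition factor (adjusted p = 0.0405), -0.71 on rescaled FPKM (adjusted p = 0.000320) and 0.12 with the GC and length correction (adjusted p = 0.527), in a range of 0.000320 to 0.799, so that the call depended on the scaling, and the value was above 0 only with the GC and length correction. PEC against Control gave 0.31 (SE 0.11, adjusted p = 0.0426), and leaving out any one mouse other than PEC mouse 2 ended this call (adjusted p of 0.0506 to 0.129), as did 3 other alternatives, while the value was 0.67 without a composition factor (adjusted p = 0.00128).

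Bak1 (ENSMUSG00000057789, chromosome 17 from 27019810 to 27029009), the effector that resides on mitochondria, had TMM-scaled FPKM of 4.35, 6.88 and 7.10 in Control mice, 20.9, 23.5 and 10.3 in HN mice and 14.1, 14.7 and 19.7 in PEC mice. Every HN and PEC mouse was above every Control mouse, and HN mouse 12 was below all PEC mice. The rise was 1.60 on the log2 scale in HN mice (SE 0.31, adjusted p = 0.00285) and 1.45 in PEC mice against Control (SE 0.31, adjusted p = 0.00446), and the latter was 0.88 with the GC and length correction (adjusted p = 0.0482). PEC against HN gave -0.15 (SE 0.30, adjusted p = 0.726), and the sign turned without HN mouse 8 (0.075, adjusted p = 0.888, in a range of 0.0813 to 0.941), whereas the value was -0.43 without HN mouse 12 (adjusted p = 0.189). Ggnbp1, which overlaps Bak1 on the opposite strand, was at 0.75 to 2.99 deposited FPKM, and since it is not stated whether counting used the strand, its reads and those of Bak1 may be mixed.

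Of the BH3-only genes, Bid (ENSMUSG00000004446, chromosome 6 from 120891930 to 120916853) encodes a protein that caspase-8 cleaves, which links death receptors to mitochondria. Its TMM-scaled FPKM were 23.5, 21.8 and 24.0 in Control mice, 9.17, 9.03 and 9.18 in HN mice and 13.1, 12.5 and 11.9 in PEC mice. The 3 groups did not overlap, with HN mice lowest, PEC mice between and Control mice highest, and the HN mice differed by a CV of 0.953%. Bid fell in HN mice by 1.32 on the log2 scale (SE 0.077, adjusted p = 3.86e-06) and rose with PEC by 0.47 (SE 0.076, adjusted p = 0.00139), but that rise turned to -0.11 when the FPKM were rescaled to a common sum (adjusted p = 0.278, in a range of 8.22e-08 to 0.278). Against Control, Bid had a log2 fold change of -0.85 in PEC mice (SE 0.076, adjusted p = 3.97e-05). Both falls were called in all 19 alternatives, but their size depended on the scaling, with -0.76 and -0.49 without a composition factor, -0.36 and -0.47 on rescaled FPKM, and -1.28 for PEC against Control with the GC and length correction. Bcl2l13, on the opposite strand over part of Bid, was at 4.17 to 6.93 deposited FPKM, so that the reads of these genes may also be mixed.

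Bad (ENSMUSG00000024959, chromosome 19 from 6941861 to 6951899), whose protein is held inactive by phosphorylation under survival signals, had TMM-scaled FPKM of 11.5, 10.4 and 11.5 in Control mice, 6.74, 4.70 and 7.45 in HN mice and 7.78, 8.73 and 8.01 in PEC mice. Control mice were highest, and HN mice were below both other groups. Bad fell in HN mice by 0.79 (SE 0.16, adjusted p = 0.00309), a call lost without a composition factor (-0.24, adjusted p = 0.237) and turned to 0.098 on rescaled FPKM (adjusted p = 0.580, in a range of 3.92e-05 to 0.580). PEC against HN gave 0.39 (SE 0.16, adjusted p = 0.0764), and without HN mouse 12 this passed the threshold (0.54, adjusted p = 0.0328), whereas it was 0.22 without HN mouse 8 (adjusted p = 0.158) and 0.077 with the GC and length correction (adjusted p = 0.754, in a range of 0.0328 to 0.754). PEC against Control gave -0.40 (SE 0.16, adjusted p = 0.0625), which passed without HN mouse 8 (adjusted p = 0.0102) or HN mouse 12 (adjusted p = 0.0461) and with the GC and length correction (-1.02, adjusted p = 0.000828), in a range of 0.000828 to 0.841. Gpr137 overlaps Bad on the opposite strand, at 4.28 to 7.88 deposited FPKM.

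Bbc3 (ENSMUSG00000002083, chromosome 7 from 16308393 to 16318205) encodes PUMA, a potent BH3-only protein and a known target of p53. Its TMM-scaled FPKM were 1.82, 1.42 and 1.04 in Control mice, 5.49, 5.11 and 3.90 in HN mice and 1.27, 1.35 and 0.851 in PEC mice. HN mice were above all others, and PEC mice overlapped with Control mice. Bbc3 rose in HN mice by 1.78 on the log2 scale (SE 0.26, adjusted p = 0.000534) and fell with PEC by 2.03 (SE 0.26, adjusted p = 0.000405), and both calls held in all 19 alternatives. Over these, which include the GC and length correction, the rise ran from 1.47 to 2.32 and the value for PEC against HN from -2.23 to -1.38. Bbc3 was at the 99.5 percentile of GC content among the tested genes, a property in which the PEC libraries stood apart. PEC against Control gave -0.26 (SE 0.25, adjusted p = 0.439), with the opposite sign on the deposited FPKM and from -0.44 to -0.045 with each mouse left out.

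Pmaip1 (ENSMUSG00000024521, chromosome 18 from 66458533 to 66465565), the gene of NOXA, which mainly binds MCL1, had TMM-scaled FPKM of 4.83, 5.07 and 6.08 in Control mice, 17.0, 10.8 and 5.52 in HN mice and 6.28, 1.97 and 6.76 in PEC mice. HN mice 4 and 8 were above every other mouse, while HN mouse 12 lay among the Control mice and PEC mouse 2 below all. The log2 fold changes were 1.08 for HN against Control (SE 0.48, adjusted p = 0.105), -1.12 for PEC against HN (SE 0.48, adjusted p = 0.0974) and -0.041 for PEC against Control (SE 0.48, adjusted p = 0.954). Without HN mouse 12 the first 2 were 1.40 (adjusted p = 0.0449) and -1.44 (adjusted p = 0.0438), the first also passed without PEC mouse 2 (adjusted p = 0.0345), and DESeq2 called both (adjusted p = 0.0355 and 0.0332). Without HN mouse 4 they were smaller, at 0.64 (adjusted p = 0.359) and -0.68 (adjusted p = 0.334), and without PEC mouse 2 the second was -0.73 (adjusted p = 0.177), within ranges of 0.00684 to 0.359 and 0.0122 to 0.334.

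Bcl2l11 (ENSMUSG00000027381, chromosome 2 from 128126038 to 128162547), the gene of BIM, which binds all protectors, had TMM-scaled FPKM of 0.794, 0.601 and 1.54 in Control mice, 1.28, 1.34 and 1.42 in HN mice and 1.58, 2.47 and 1.23 in PEC mice. Control mouse 5 lay above the HN mice and PEC mouse 3 below them, so that all groups overlapped. The log2 fold changes were 0.48 for HN against Control (SE 0.34, adjusted p = 0.304), 0.40 for PEC against HN (SE 0.34, adjusted p = 0.391) and 0.88 for PEC against Control (SE 0.34, adjusted p = 0.0633). Without Control mouse 5, HN against Control was 0.96 (adjusted p = 0.0266) and PEC against Control 1.36 (adjusted p = 0.00582), and the latter also passed without PEC mouse 3 (1.09, adjusted p = 0.0375). HN against Control was smaller without Control mouse 4 (0.23, adjusted p = 0.640) and with the GC and length correction (0.17, adjusted p = 0.703), and without PEC mouse 2, PEC against Control was 0.57 (adjusted p = 0.215) and PEC against HN 0.094 (adjusted p = 0.860). Over the alternatives, the adjusted p of the comparisons with Control ran from 0.00347 to 0.703 for HN and from 0.00582 to 0.215 for PEC.

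Promoters were compared because Bcl2, Mcl1 and Bbc3 were called higher in HN and lower with PEC, while Bid was called the opposite way. The 250 bases before the RefSeq start (GRCm38.p6) nearest to the annotated start of the gene were searched on both strands for 9 members found in the RefSeq table. Below, read 5' to 3' on the strand of the gene, capitals mark GC boxes (GGGCGG or its complement CCGCCC, which may share bases), for Bcl2 at chr1:106714291-106714540 on the minus strand, Mcl1 at chr3:95658471-95658720 on the plus strand, Bbc3 at chr7:16309333-16309582 on the plus strand and Bid at chr6:120916825-120917074 on the minus strand.
Bcl2: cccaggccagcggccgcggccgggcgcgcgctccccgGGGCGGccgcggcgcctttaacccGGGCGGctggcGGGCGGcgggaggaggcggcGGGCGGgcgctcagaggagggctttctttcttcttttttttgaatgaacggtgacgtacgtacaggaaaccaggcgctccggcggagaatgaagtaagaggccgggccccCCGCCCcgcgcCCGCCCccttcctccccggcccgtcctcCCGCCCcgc
Mcl1: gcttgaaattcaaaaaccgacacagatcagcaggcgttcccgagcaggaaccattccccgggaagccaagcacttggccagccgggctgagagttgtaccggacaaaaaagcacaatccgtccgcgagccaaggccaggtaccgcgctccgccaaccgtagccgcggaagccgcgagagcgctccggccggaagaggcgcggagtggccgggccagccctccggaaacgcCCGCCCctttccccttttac
Bbc3: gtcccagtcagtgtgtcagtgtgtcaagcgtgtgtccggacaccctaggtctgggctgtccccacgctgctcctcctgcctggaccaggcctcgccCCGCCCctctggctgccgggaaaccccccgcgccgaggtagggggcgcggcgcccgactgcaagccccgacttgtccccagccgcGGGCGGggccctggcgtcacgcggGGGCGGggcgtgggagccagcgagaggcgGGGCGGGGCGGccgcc
Bid: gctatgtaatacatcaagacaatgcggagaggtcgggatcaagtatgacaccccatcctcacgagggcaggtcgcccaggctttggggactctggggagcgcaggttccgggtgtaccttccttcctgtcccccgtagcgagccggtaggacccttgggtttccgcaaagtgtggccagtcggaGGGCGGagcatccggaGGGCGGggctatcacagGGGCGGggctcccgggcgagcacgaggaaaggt
The Bcl2 window held 7 GC boxes, that of Bbc3 5, that of Bid 3 and that of Mcl1 1, so that these letters did not set Bid apart from the others. A GC box was found in 7 of the 9 members (not in Bcl2l1 and Bak1), beside 33.0% of 32526 promoter windows. The E-box CACGTG was found in 1 member, Bax, and in 6.04% of windows, and a p53 half-site also in Bax and in 7.13% of windows. CCAAT was found in 1 member (Bcl2l11) and in 33.8% of windows, and TATAAA in 0 members and in 12.3% of windows. GC content was 74.8% in the Bcl2 window, 76.4% in that of Bbc3, 64.4% in that of Mcl1 and 63.6% in that of Bid, beside a median of 52.4%. Bbc3 has 3 RefSeq starts, and the one used lies 1190 bases inside the annotated gene. Bcl2l1 also has 3. The start used for Bak1, on the minus strand, lies at -382 from the annotated start in genome coordinates. Its window is therefore also inside the annotated gene.

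The order of the levels, which per length can be compared between genes, differed between the groups. In Control mice it ran from Mcl1 (41.7 ± 5.25 TMM-scaled FPKM, SD, n = 3) over Bid (23.1 ± 1.17), Bax (18.6 ± 0.993), Bcl2l1 (13.9 ± 4.18), Bad (11.1 ± 0.660), Bak1 (6.11 ± 1.53), Pmaip1 (5.33 ± 0.665), Bcl2 (1.83 ± 0.167) and Bbc3 (1.43 ± 0.390) to Bcl2l11 (0.979 ± 0.497). Neighbours overlapped from Bax to Bcl2l1 to Bad, from Bak1 to Pmaip1, and from Bcl2 to Bbc3 to Bcl2l11. In HN mice Mcl1 (69.7 ± 12.4) was followed by Bax (25.01 ± 0.393) and Bak1 (18.2 ± 7.00), and Bid (9.13 ± 0.0870) was in the sixth place, against the second in Control mice. Bcl2l1 (11.4 ± 4.22) and Pmaip1 (11.1 ± 5.74) lay between and overlapped with their neighbours on both sides, then came Bad (6.30 ± 1.43), Bbc3 (4.83 ± 0.831), Bcl2 (2.78 ± 0.0531) and Bcl2l11 (1.35 ± 0.0710). Of these last genes, Bad and Bbc3 overlapped. In PEC mice Mcl1 (49.1 ± 6.58), Bax (22.3 ± 2.81), Bcl2l1 (16.4 ± 6.37) and Bak1 (16.2 ± 3.06) led, and Bax, Bcl2l1 and Bak1 overlapped. Bid (12.5 ± 0.611), Bad (8.17 ± 0.496), Pmaip1 (5.0 ± 2.64), Bcl2l11 (1.76 ± 0.636), Bcl2 (1.62 ± 0.0811) and Bbc3 (1.16 ± 0.269) followed, of which Pmaip1, Bcl2l11 and Bcl2 overlapped in turn.

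Quantities within a library do not depend on its scaling, but trends with GC content and length differ between genes and do not cancel. The shares below were not corrected for these trends. Of the summed deposited FPKM of the 10 genes, Bid held 17.8% to 19.2% in Control mice, 5.03% to 6.39% in HN mice and 7.89% to 10.4% in PEC mice, in separate ranges. Mcl1 held 28.0% to 37.2% in Control mice, 41.0% to 46.1% in HN mice and 32.5% to 40.3% in PEC mice, and its HN range was clear of the others. Bak1 held 3.54% to 5.63% in Control mice, 7.15% to 15.3% in HN mice and 10.6% to 13.1% in PEC mice, so that HN and PEC mice overlapped above Control. The 5 BH3-only genes together held 32.1% to 34.7% in Control, against 19.1% to 21.8% in HN and 19.1% to 22.6% in PEC mice. These shares are descriptions without a test, and the share of one gene moves when another changes.

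The ratio of Bcl2 to Bax, a protector against an effector, was 0.0986, 0.0941 and 0.102 in Control mice, 0.114, 0.107 and 0.112 in HN mice and 0.0641, 0.0883 and 0.0689 in PEC mice on the FPKM scale. The ratio was highest in HN mice and lowest in PEC mice, and no 2 groups overlapped. It is a ratio of RNA, whereas the study measured Bcl2/Bax as protein. The study reported that PEC eased apoptosis in HN mice, marked by an imbalance of the Bcl-2 and Bax proteins. Protein cannot be read from these data. The mean log2 ratio was higher in HN than in Control mice by 0.17 and changed by -0.60 from HN to PEC mice and by -0.43 from Control to PEC mice. Each of the 3 differences had p = 0.1 in a two-sided exact permutation test (adjusted p = 0.1 over the 3), which is the smallest p that this test allows with 3 against 3 mice, so that it cannot reach 0.05. Both genes are far from the middle of the tested genes in properties with which the PEC libraries moved, since Bax was at the 99.1 percentile of GC content and Bcl2 at the 93.9 percentile of length. With the GC and length correction of both genes, chosen after seeing the data, the differences were 0.13, -0.36 and -0.23 (adjusted p = 0.2 each), and only HN and PEC mice did not overlap. Bcl2l1 to Bax (0.595 to 0.948 in Control mice, 0.315 to 0.652 in HN mice and 0.476 to 0.842 in PEC mice) and Mcl1 to Bax (1.81 to 2.51, 2.47 to 3.39 and 1.80 to 2.53) overlapped between the groups.

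**Figure D3:**
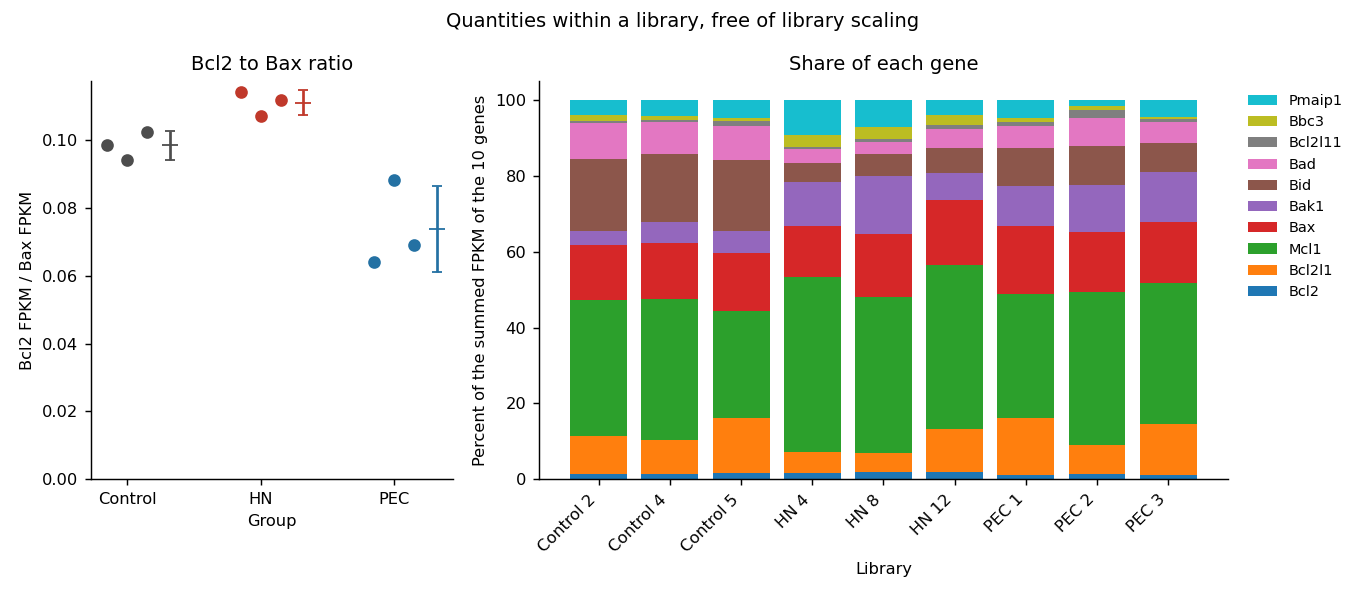
Left, the Bcl2 to Bax ratio of FPKM (y axis, from 0) by group (x axis), with single mice as points and the mean with its SD (n = 3) beside them. Right, the percent of the summed FPKM of the 10 genes (y axis) that each gene held in each library (x axis), where Bid takes 17.8% to 19.2% in Control and 5.03% to 6.39% in HN mice.

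The genes with the pattern most like that of Bcl2 over the 9 libraries were Sytl4, Rin2 and Asah1, with root mean square differences of log2 CPM of 0.057, 0.065 and 0.086 after centring. For Bax these were Sf3a2, Dut and Rgmb, with 0.0795, 0.0796 and 0.0801.

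Counts in the next 3 lists stand beside 21.1% of all tested genes higher and 20.7% lower in HN against Control, 18.3% and 20.6% in PEC against HN, and 22.9% and 23.5% in PEC against Control. Counts and values in these lists are given without the GC and length correction, although the PEC libraries stood apart in both properties. Of 14 other BCL2 family genes, 13 were tested (not Bcl2l10). In HN against Control 6 rose and 2 fell, in PEC against HN 1 rose and 4 fell, and in PEC against Control 5 were higher and 4 lower. Bcl2a1a and Bcl2a1b, protectors known from leukocytes, had log2 fold changes of 4.07 and 3.78 in HN against Control, and Bcl2a1a and Bcl2a1d had 3.63 and 3.58 in PEC against Control, but these copies are nearly identical and their counts are uncertain. Bnip3, a BH3-like gene of mitophagy, had -1.30 in HN against Control and 0.51 in PEC against HN. Bcl2l13, a member of the family on mitochondria, had -0.61 in HN against Control. With PEC against HN, Bok, an effector-like member, had -0.91 and the BH3-only gene Bmf -0.64. Bcl2l13 and Bcl2l2, the protector BCL-W, were lower in PEC than in Control mice (-0.89 and -0.81).

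Downstream of the mitochondria, 6 of 17 genes rose and 7 fell in HN against Control, 7 rose and 5 fell in PEC against HN, and 4 were higher and 7 lower in PEC against Control. Birc3, an inhibitor of apoptosis, rose in HN mice by 2.44 on the log2 scale and was also higher in PEC mice than in Control (1.93). Cycs, which encodes cytochrome c, and Aifm1, the apoptosis-inducing factor, had -1.23 and -1.15 in HN mice. With PEC against HN, the channel gene Vdac1 and the protease gene Htra2 had 0.50 and 0.44, whereas Apaf1, the scaffold of the apoptosome, and the caspase inhibitor Xiap had -2.68 and -1.02. Apaf1 and the nuclease gene Endog were lower in PEC than in Control mice (-1.47 and -1.25).

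Among 16 regulators of the family, 15 were tested (not Trp73). In HN against Control 6 rose and 0 fell in edgeR, as in DESeq2 and at an unadjusted p under 0.05. In PEC against HN 0 rose and 5 fell in edgeR, whereas 1 was higher and 7 were lower both in DESeq2 and at an unadjusted p under 0.05. In PEC against Control 5 were higher and 3 lower. Nfkb1, a subunit of NF-kappaB, and E2f1, a cell cycle transcription factor, rose in HN mice by 1.5 and 1.22 on the log2 scale. Trp53, which encodes p53, had 0.91 in HN and 1.08 in PEC mice against Control, and E2f1 had 0.83 in the latter. With PEC against HN, Usp9x, a deubiquitinase of MCL1, and Fbxw7, a ubiquitin ligase subunit for MCL1, had -1.14 and -1.01. Usp9x and Foxo1 were lower in PEC than in Control mice (-1.35 and -0.62).

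Markers of several cell types also differed between the groups. All 5 macrophage markers rose in HN mice and 4 of them fell with PEC, and their summed TMM-scaled FPKM, with C1qa as the most abundant gene, were 30.1, 35.2 and 31.8 in Control mice, 320, 355 and 274 in HN mice and 122, 139 and 197 in PEC mice. All 6 proximal tubule markers, led by Slc34a1, fell in HN mice and rose with PEC, with sums of 1664, 1768 and 1868 in Control mice, 440, 406 and 418 in HN mice and 830, 999 and 712 in PEC mice. The 4 fibroblast markers, led by Acta2, rose in HN mice (38.4 to 42.8 in Control mice, 146 to 163 in HN mice and 106 to 126 in PEC mice), as did the 4 T cell markers, led by Cd4 (0.819 to 1.058, 4.69 to 7.99 and 3.25 to 4.21). Of the B and plasma cell markers, led by Jchain, 2 of 4 rose (2.05 to 6.25, 11.4 to 22.7 and 1.04 to 2.64). Of the neutrophil markers, led by S100a9 and with Ly6g at 0 in at least 1 library, 1 of 3 tested rose (5.17 to 14.2, 14.0 to 26.9 and 8.22 to 25.9). In HN mice both distal convoluted tubule markers (Slc12a3 and Pvalb) fell, as did 3 of 4 collecting duct markers (Aqp2, Atp6v1g3 and Slc4a1). Of the 2 thick limb markers Slc12a1 fell (-1.40), while Umod was not called (0.070). Of 4 endothelial markers Cdh5 rose (0.44) and Kdr fell (-1.002). Mean sums in Control, HN and PEC mice were 76.7, 37.4 and 68.4 for the distal convoluted tubule, 333, 132 and 194 for the collecting duct, 1334, 1213 and 1198 for the thick limb, and 41.9, 36.2 and 36.6 for endothelium. On the deposited FPKM the last 2 had the opposite order in Control and HN mice, with 1080 and 1443 for the thick limb and 33.9 and 43.1 for endothelium. The part of the mix of cell types in the changes of the members was not tested.

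Scaling moved all genes, and the members with them. Without a composition factor, as in the deposited FPKM, the median log2 fold change of all tested genes was 0.56 for HN against Control, -0.21 for PEC against HN and 0.40 for PEC against Control, so that a change of a member on that scale is to be read against these shifts. The share of higher genes among those called was then 85.0%, 30.0% and 73.3%, beside 50.5%, 47.1% and 49.3% with TMM. In limma it was 83.8%, 30.6% and 70.5% on log2(FPKM + 1), and 92.8%, 13.4% and 72.6% after rescaling to a common sum, where the median of all genes moved to 0.46, -0.29 and 0.12. With limma on log2(FPKM + 1) the medians were 0.22, -0.092 and 0.12. For Bcl2, Mcl1, Bak1, Bid and Bbc3, the HN against Control call held in its direction in all 19 alternatives.

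**Figure D4:**
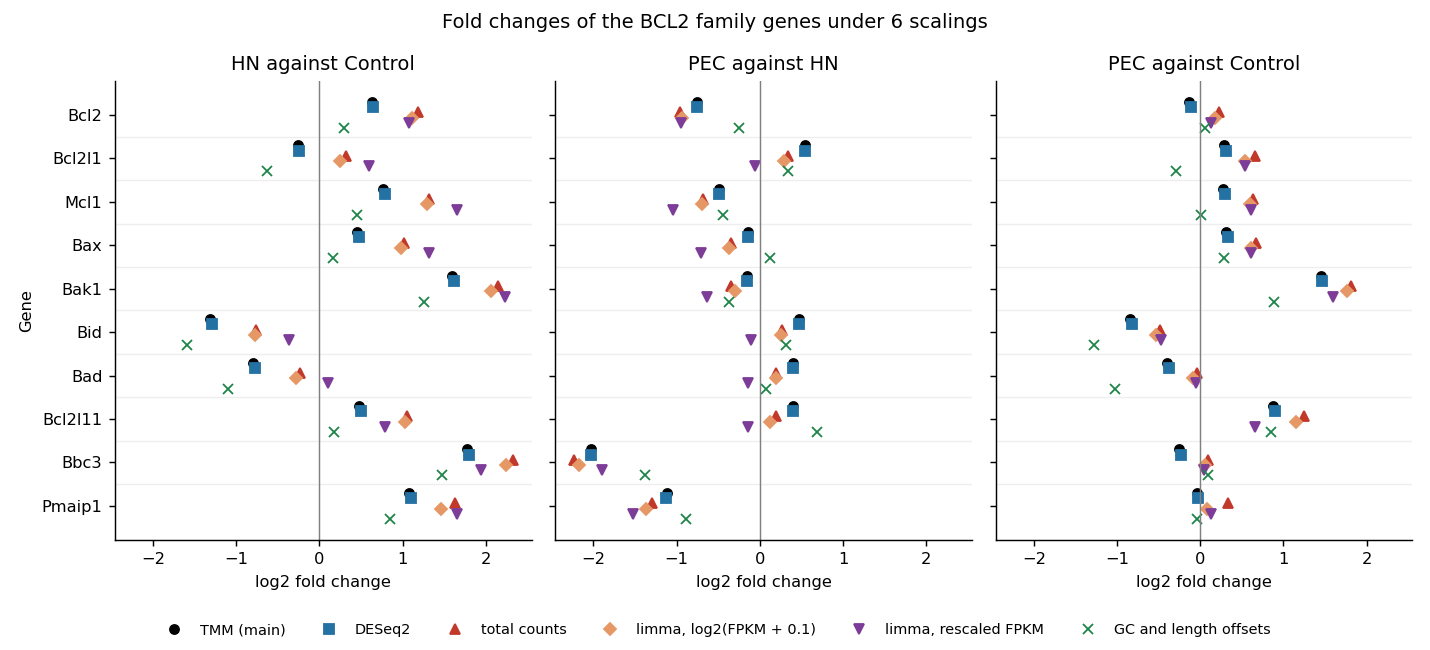
Log2 fold change (x axis) of each BCL2 family gene (y axis) in the 3 comparisons, under TMM in edgeR, DESeq2, total counts without a composition factor, limma on FPKM in 2 forms, and TMM with a GC and length correction. Bbc3 and Bak1 stay above 0 in HN against Control in all of these, whereas Bad crosses 0 on rescaled FPKM (0.098) and Bax crosses 0 in PEC against HN with the GC and length correction (0.12).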

How the data were processed

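The authors deposited, for each gene and kidney library, a read count without normalization and an FPKM value scaled by the total of the library. The submitters' processing notes list Bowtie 0.12.2 with the builds mm8 and mm9. The table carries coordinates identical to GENCODE mouse release 21 (GRCm38) for 51991 of 55144 shared genes. The counting program and its use of strand are not given in the sources used here. The table held 0 columns of other samples.

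Counts were tested with edgeR 4.0.16 in R 4.3.3 (TMM factors, filterByExpr with a minimum count of 10, glmQLFit and glmQLFTest), in one fit over the 9 libraries without covariates, with Benjamini-Hochberg adjustment over the 21392 genes tested. Each library was taken as 1 mouse, by the numbers in the titles. Over the 9 pairs of replicates, chi-square divided by its degrees of freedom was 62.8 to 212, where counting error alone gives about 1. The standard error was the log2 fold change divided by the root of its F statistic. The permutation test was run in scipy 1.17.1. In blastn 2.17.0, 0 transcripts of other genes matched a member over at least 50% of its transcript, or over 300 bases, at 90% identity.

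All 10 members were named, and of each list of other genes the pair of largest rises and of largest falls among genes called. The value of Trp53 in HN against Control was added after it was seen. Members, lists and tests were chosen with earlier results of these data known. Alternatives were DESeq2 1.42.0, median-of-ratios factors, total counts, other filters on low counts, limma 3.58.1 on log2(FPKM + 1), log2(FPKM + 0.1) and rescaled FPKM, the 2 groups alone, each mouse left out in turn, and a call rule of a fold change of at least 1.5 with an unadjusted p of at most 0.05. Offsets from a spline of 5 degrees of freedom on GC content and length, for 21358 tested genes, were chosen after seeing the data. Of the steps, only the edgeR fit was tested on simulated counts. Results for 3 of the planned genes of the lists and markers were not reported here.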

Additional observations from a re-analysis of the deposited data

How the results depend on the processing

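Of the alternatives run for the 30 fold changes of members, 481 values kept their direction and side of the threshold, 39 newly passed it, 20 no longer passed it and 30 changed sign, and the cause was not tested. On total counts, log2(FPKM + 1), log2(FPKM + 0.1) and rescaled FPKM, in that order, the sign changed for Bcl2l1 in HN against Control (0.31, 0.23, 0.25 and 0.60) and, in PEC against Control, for Bcl2 (0.23, 0.12, 0.18 and 0.13), Bbc3 (0.093, 0.031, 0.059 and 0.041) and Pmaip1 (0.33, 0.10, 0.085 and 0.13). On rescaled FPKM alone it changed for Bad in HN against Control (0.098) and, in PEC against HN, for Bcl2l1 (-0.063), Bid (-0.11), Bad (-0.15) and Bcl2l11 (-0.14). With the GC and length offsets, chosen after seeing the data, it changed for Bax in PEC against HN (0.12) and, in PEC against Control, for Bcl2 (0.052), Bcl2l1 (-0.29) and Bbc3 (0.094). With a mean CPM of at least 1, Pmaip1 in PEC against Control was at 0.015. With each mouse left out, Bcl2l1 in HN against Control ran from -0.60 to 0.0044, Bak1 in PEC against HN from -0.43 to 0.075 and Pmaip1 in PEC against Control from -0.30 to 0.35. Genes called in HN against Control were 14204 on rescaled FPKM, beside 8945 of 21392 tested. Members called in PEC against HN were 2 with the GC and length offsets, beside 4, where all genes called were 6932 and 8322. In PEC against Control 5 members were called on total counts, on both log2 forms of FPKM and on rescaled FPKM, beside 3, where all genes called were 10633, 10369, 10792 and 9673, beside 9939 of 21392 tested. With each mouse left out, members called ran from 7 to 8, from 3 to 6 and from 2 to 3 in the 3 comparisons. All genes called then ran from 7420 to 9196, from 6617 to 8623 and from 8793 to 9639. The difference of the log2 ratio of Bcl2 to Bax ran from 0.14 to 0.20, from -0.74 to -0.51 and from -0.56 to -0.33, where 3 against 2 mice allow no adjusted p under 0.2 in this test. No paired analysis was possible because the groups share fewer than 2 mouse numbers. Bbc3, with 126 reads in PEC mouse 3, had the lowest count of the members.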
